A study of Mus musculus with 6 samples.

Results

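The NR4A nuclear receptors are a family of 3 transcription factors, encoded by *Nr4a1*, *Nr4a2*, and *Nr4a3*, and their transcripts were examined in the cerebellum of mice that lack *Slc39a8* in neurons. They are 3 of the 53715 genes measured, and all 3 were among the 16330 genes with enough counts to be tested. They were selected on the result of the comparison itself, since each was measured at a lower level in the knockout mice, so that their difference between genotypes is given as a description with no test. *Slc39a8* encodes a membrane transporter for manganese, zinc, and iron.

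Cerebellar RNA was sequenced from 3 controls and from 3 *Slc39a8*-NSKO (neuron-specific knockout) mice, all of them males that were 4 weeks old, of strain C57BL/6 by the labels and C57BL/6J by the study's methods. In the knockout mice the floxed *Slc39a8* gene was deleted by a Cre recombinase under the synapsin I promoter, which is active in neurons. By this design glia, vessels, and other cells keep the gene, but deletion was not measured here by cell type. The study states that expression of this Cre may vary between brain regions. The labels call the controls WT, and the study names *Slc39a8* fl/fl mice, which carry floxed alleles, as its controls and in places speaks of wild-type mice. The study states 3 mice per genotype in one place and technical triplicates in another, and the p values below measure only the spread between these samples. Counts on genes ranged from 14431260 to 20844267 per mouse. *Slc39a8* itself was measured at 3.60 ± 1.04 CPM (counts scaled to a common library size; SD, n = 3) in controls. In the knockout mice it was at 2.04 ± 0.138 CPM (SD, n = 3). The log2 fold change of −0.83 (SE 0.24) did not pass edgeR's quasi-likelihood test (adjusted p = 0.534), although the highest knockout mouse, at 2.18 CPM, was below the lowest control, at 2.83 CPM. Markers of granule cells, Purkinje cells, and molecular layer interneurons were present in every mouse and their summed levels overlapped between genotypes, as did those of oligodendrocytes, endothelial cells, choroid plexus, erythroid cells, cerebral cortex and striatum, and midbrain dopamine neurons.

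NR4A proteins (NR4A1, also called Nur77; NR4A2, or Nurr1; NR4A3, or Nor1) are orphan nuclear receptors that act without a classical ligand. They bind a response element named NBRE as monomers and can also act as dimers, and NR4A1 and NR4A2 can pair with retinoid X receptors (RXR). In neurons their genes are immediate-early genes, transcribed within minutes of electrical activity, calcium entry, or cAMP signaling, in large part through the transcription factor CREB bound at cAMP response elements (CRE). In midbrain, NR4A2 is needed for dopamine neurons. NR4A2 is therefore best known outside the cerebellum, while all members are also induced in many tissues by hormones and stress.

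The bases in front of the start sites are shown because the CRE core, TGACG, occurs 4 times in each of them. The sequences were taken from RefSeq promoter windows of GRCm38.p6, which run from 250 bases before to 50 bases after a start site, and all 3 genes had one. They read 5′ to 3′ on the strand of the gene, with each core in capitals (TGACG where it lies on the strand of the gene, CGTCA where it lies on the opposite strand). For *Nr4a1* the 250 bases at chr15:101266596-101266845 (plus strand) are shown, which lie inside the longest gene model and in no annotated exon. For *Nr4a2* they are the 250 bases at chr2:57124004-57124253 (minus strand), directly in front of the gene. For *Nr4a3* the 108 bases at chr4:48045055-48045162 (plus strand) are shown, from 250 to 143 bases before the RefSeq start, of which the last 10 lie in the first exon of another transcript.
Nr4a1: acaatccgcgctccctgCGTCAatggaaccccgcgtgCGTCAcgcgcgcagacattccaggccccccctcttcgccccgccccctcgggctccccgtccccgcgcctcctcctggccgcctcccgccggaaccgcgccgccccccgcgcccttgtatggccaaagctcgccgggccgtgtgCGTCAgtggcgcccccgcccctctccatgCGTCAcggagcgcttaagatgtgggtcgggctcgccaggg
Nr4a2: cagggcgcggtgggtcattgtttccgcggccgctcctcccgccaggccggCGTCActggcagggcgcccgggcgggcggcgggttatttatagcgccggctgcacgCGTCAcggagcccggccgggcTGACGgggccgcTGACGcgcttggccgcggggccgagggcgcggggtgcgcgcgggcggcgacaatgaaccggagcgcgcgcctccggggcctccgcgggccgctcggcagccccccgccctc
Nr4a3: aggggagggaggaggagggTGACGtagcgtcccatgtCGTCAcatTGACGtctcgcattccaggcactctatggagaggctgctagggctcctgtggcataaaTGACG

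Of 32851 such windows over all genes, 20.8% held at least 1 core and 0.231%, or 76 windows, held 4 or more, counting both strands. The number of 4 was read off the members and was not set beforehand, and with the members' high GC content of 64.7% to 81.7% the shares among like windows were larger, at 0.578% of the 6056 windows in the same GC range and 0.908% of the 5395 windows with as many CpG dinucleotides. In *Nr4a1* the cores began 233, 213, 69, and 40 bases before the start and all lay on the opposite strand. Each of these 4 cores stood in the longer stretch TGCGTCA, a stretch that was searched for after the sequences were seen. It occurred in 2.12% of all windows, *Nr4a1* was the only window of the 32851 with 4 of them, and *Nr4a2* and *Nr4a3* had 0. In *Nr4a2* the cores began 200 and 144 bases before the start on the opposite strand and 123 and 111 bases before it on the strand of the gene. In *Nr4a3* they began 231, 205, and 147 bases before the start on the strand of the gene and 213 bases before it on the opposite strand.

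The full CRE, TGACGTCA, which holds a core on each strand, was found in 0 of the 3 windows and in 1.79% of all. The NBRE, AAAGGTCA, was likewise found in 0 of the 3 and in 1.51% of all, the AP-1 site TGACTCA in 0 and 5.20%, the E-box CACGTG in 0 and 7.15%, and the CArG box bound by serum response factor in 0 and 1.63%. A site for MEF2, a calcium-regulated factor, was found once, in *Nr4a2* from 167 to 158 bases before the start, and in 3.19% of all windows. Among related genes, 40 of 46 other nuclear receptor genes and 32 of 41 other immediate-early genes had a window, and the rest were not counted. The most cores in a window was 3 in both sets, with a median of 0 for the nuclear receptor genes and 1 for the immediate-early genes. These matches describe letters in a window of 300 bases and not factor binding, and sites outside the window were not counted. Elements bound by NR4A dimers were not searched for.

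**Figure D1:**
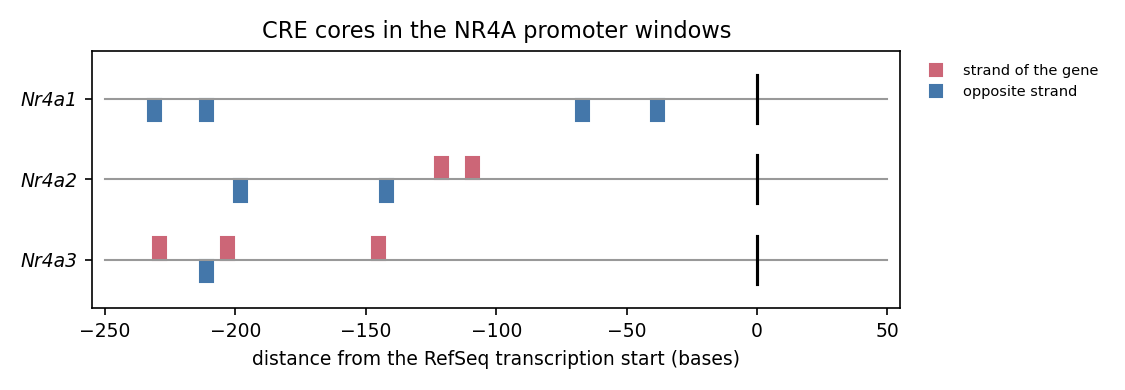
Positions of the CRE core TGACG in the promoter window of each NR4A gene. The x axis is the distance in bases from the RefSeq transcription start (vertical bar), boxes above a line are on the strand of the gene and boxes below it on the opposite strand. Each gene has 4 cores, all of them before the start.

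*Nr4a1* (ENSMUSG00000023034.7) occupies bases 101254269 to 101274795 of chromosome 15 in GRCm38, on the plus strand, and encodes Nur77, which is also known from T cells and steroid-producing tissues. In the 3 control mice its level was 68.8, 67.7, and 61.5 CPM, and in the 3 *Slc39a8*-NSKO mice it was 19.5, 21.2, and 30.1 CPM. The controls lay close together, the knockout mice were all lower, and the lowest control was 2.05 times the highest knockout mouse. The means were 66.0 ± 3.94 and 23.6 ± 5.66 CPM (SD, n = 3 each), so that 35.8% of the control level was left. The log2 fold change was −1.49 (SE 0.12).

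*Nr4a2* (ENSMUSG00000026826.13), the receptor of dopamine neurons, occupies bases 57106830 to 57124003 of chromosome 2 on the minus strand. It was measured at 45.6, 47.6, and 44.6 CPM in controls and at 16.1, 9.24, and 13.8 CPM in *Slc39a8*-NSKO mice. Here too the groups did not overlap, with the lowest control at 2.77 times the highest knockout mouse, and knockout mouse 2 was the lowest. The means were 45.9 ± 1.55 and 13.1 ± 3.50 CPM (SD, n = 3 each), which left 28.4% of the control level, with a log2 fold change of −1.81 (SE 0.14).

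*Nr4a3* (ENSMUSG00000028341.9) occupies bases 48045153 to 48086447 of chromosome 4 on the plus strand and encodes Nor1. Its level was 52.2, 61.8, and 76.7 CPM in controls and 20.7, 10.5, and 13.6 CPM in *Slc39a8*-NSKO mice. The controls were spread more widely than for the other members, control 3 being the highest and control 1 the lowest, yet the lowest control was still 2.52 times the highest knockout mouse. With means of 63.6 ± 12.4 and 14.9 ± 5.23 CPM (SD, n = 3 each), 23.5% of the control level was left, and the log2 fold change was −2.08 (SE 0.19).

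For all 3 genes the genotypes were thus fully separated, with the knockout mice below. Over the genes tested, 5.26% had every knockout mouse below every control and 5.07% had every one above. In edgeR's test 0.0735% of genes (12) were lower at an adjusted p below 0.05 and 0.0245% (4) were higher. As the members were selected on this comparison, nothing is read from their own count. Ordered by the size of the fall in the fit, *Nr4a3* was number 5, *Nr4a2* number 10, and *Nr4a1* number 17 of the 16330 genes. Leaving out any 1 mouse moved the log2 fold change between −1.70 and −1.36 for *Nr4a1*, between −1.99 and −1.61 for *Nr4a2*, and between −2.40 and −1.88 for *Nr4a3*. In whole cerebellum, fewer cells that express these genes and less RNA per cell cannot be told apart.

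**Figure D2:**
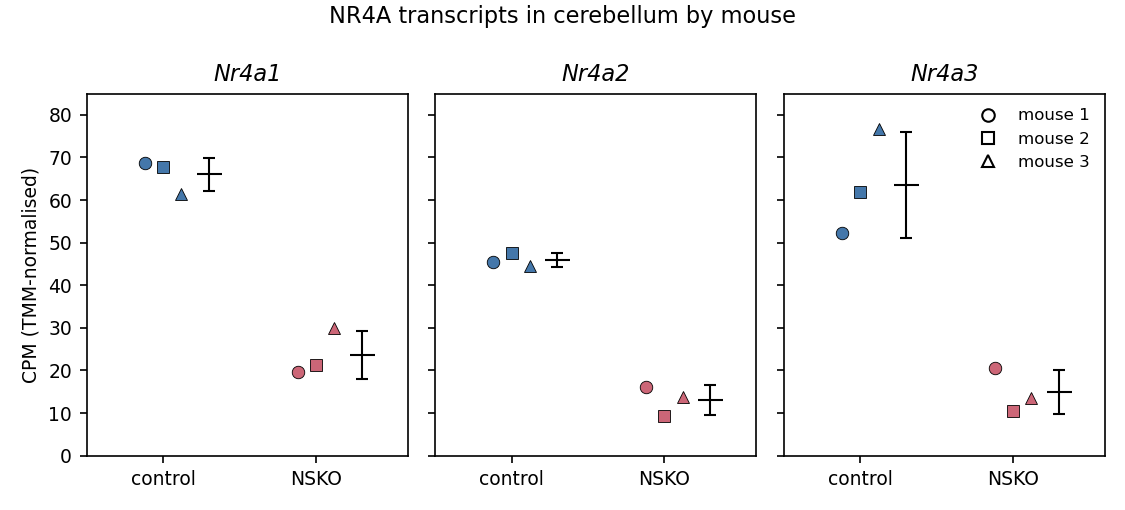
Levels of the NR4A genes in each mouse, in TMM-normalised CPM (y axis), for 3 control and 3 *Slc39a8*-NSKO mice (x axis). Each symbol is 1 mouse, and the horizontal mark with its bar is the mean ± SD. All knockout mice lie below all controls for each gene, from 30.1 CPM downward for *Nr4a1* and 20.7 CPM downward for *Nr4a3*.

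The mice did not rank alike for the 3 genes. Among the knockout mice *Nr4a1* was highest in mouse 3, at 45.6% of the control mean, against 29.6% and 32.1% in mice 1 and 2. *Nr4a2* and *Nr4a3* were highest in mouse 1, at 35.1% and 32.5%, and lowest in mouse 2, at 20.1% and 16.5%. Thus knockout mouse 3 retained the most *Nr4a1* and an intermediate level of the other members. The spread between control mice as a percent of the mean was 5.96% for *Nr4a1*, 3.38% for *Nr4a2*, and 19.5% for *Nr4a3*, where counting error alone gives 3.04%, 3.63%, and 3.10%. In knockout mice the spread was 24.0%, 26.8%, and 35.0%, against a counting error of 4.74%, 6.46%, and 6.12%. Across the 6 mice, which fall into separate groups by genotype, the members shared libraries and the same contrast, and no pooled correlation is read from them.

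Levels of different genes were compared as CPM per kilobase of merged exons, with exon lengths of 3509 bases for *Nr4a1*, 4059 for *Nr4a2*, and 5987 for *Nr4a3*. On this scale *Nr4a1* was the most abundant member in every mouse. Its level was 18.8 ± 1.12 CPM per kilobase (SD, n = 3) in controls, higher than 83.6% of the genes tested, and 6.73 ± 1.61 in *Slc39a8*-NSKO mice, higher than 60.1%. *Nr4a2* was at 11.3 ± 0.383 and 3.22 ± 0.862 CPM per kilobase, above 73.0% and then 42.6% of genes. *Nr4a3* was at 10.6 ± 2.07 and 2.49 ± 0.873 CPM per kilobase, above 71.5% and then 37.5%. The ranges of *Nr4a2* and *Nr4a3* overlapped in both genotypes, and within a mouse *Nr4a2* was above *Nr4a3* in 2 of 3 controls and in 3 of 3 knockout mice, with the reverse order in control 3. In the knockout mice both thus lay below the median gene.

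The summed level of the family was 39.5, 41.4, and 41.3 CPM per kilobase in controls and 13.0, 10.1, and 14.2 in *Slc39a8*-NSKO mice. The 3 controls were within a spread of 2.56% of their mean, closer than for any single member, and control 3 had both the most *Nr4a3* and the least *Nr4a1*. The share of *Nr4a1* in the sum was 46.2 ± 3.60% in controls and 54.3 ± 9.96% in *Slc39a8*-NSKO mice (SD, n = 3 each). The share of *Nr4a2* was 27.8 ± 1.04% and 25.7 ± 4.28%, and that of *Nr4a3* 26.0 ± 4.57% and 20.0 ± 5.78%. All of these shares overlapped between genotypes. The ratio of *Nr4a3* to *Nr4a2* CPM within a mouse ran from 1.15 to 1.72 in controls and from 0.985 to 1.28 in knockout mice, so that the difference between the fold changes of these members was within the spread between mice. The same held for *Nr4a1* to *Nr4a2*, at 1.38 to 1.51 and 1.21 to 2.29, and for *Nr4a3* to *Nr4a1*, at 0.759 to 1.25 and 0.452 to 1.06.

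**Figure D3:**
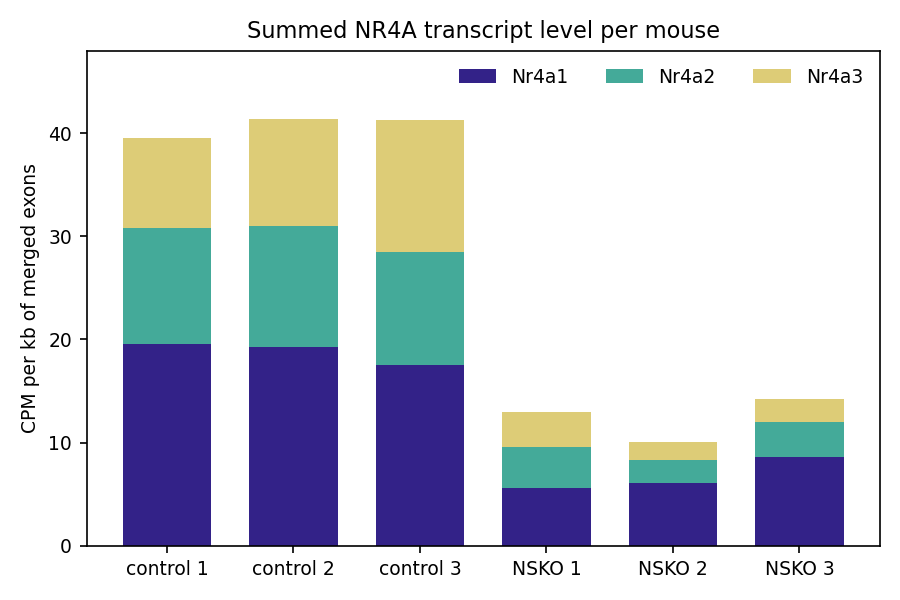
Summed NR4A transcript level in each mouse, in CPM per kilobase of merged exons (y axis), split by gene, for 3 control and 3 *Slc39a8*-NSKO mice (x axis). The control bars reach 39.5 to 41.4 and the knockout bars 10.1 to 14.2, and *Nr4a1* is the largest segment in every mouse.

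The other nuclear receptor genes are described for comparison. Of 46 such genes 31 were tested, and in edgeR's test 0 were lower and 0 higher in *Slc39a8*-NSKO mice, with 1 at an unadjusted p below 0.05. With 0.0735% and 0.0245% of all genes called, a count of 0 in a list of this size, or in the lists of upstream factors, partners, targets, and flanking genes, does not set the list apart. Their median log2 fold change was −0.01, beside 0.00 over all genes tested, and 29 of the 31 lay within 0.2 of 0 on the log2 scale. They ranged from −0.31 for *Nr0b2* to 0.40 for *Nr6a1*, or 79.9% to 133% of the control level. *Thra*, a thyroid hormone receptor, was at 435 ± 24.8 CPM in controls and 434 ± 10.4 CPM in knockout mice (SD, n = 3 each). *Rora*, required for Purkinje cell development, was at 293 ± 38.2 and 312 ± 8.23 CPM, and *Nr1d2*, a repressor of the circadian clock, at 237 ± 13.3 and 225 ± 12.3 CPM. Every knockout mouse was below every control for 1 of the 31 and above for 1, near the 5.26% and 5.07% of all genes. The Wald test of DESeq2 also called 0 genes in this list and 0 in those of partners, upstream factors, targets, and flanking genes described next.

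The partners of NR4A proteins also gave 0 calls among 9 tested of 10, with 0 at an unadjusted p below 0.05 and a median log2 fold change of 0.00. *Rxra*, which encodes a retinoid X receptor, was at 23.5 ± 2.85 CPM in controls and 25.7 ± 1.75 CPM in *Slc39a8*-NSKO mice (log2 fold change 0.13, SE 0.09). *Rxrb* was at 77.9 ± 1.22 and 77.0 ± 3.18 CPM (−0.02, SE 0.06), and *Rxrg* had too few counts to be tested, at 7 to 11 per mouse. *Ncor1*, a corepressor gene, was at 199 ± 20.5 and 219 ± 20.8 CPM, and *Trim28*, whose product is a chromatin cofactor, was at 139 ± 9.34 and 139 ± 6.21 CPM. Their log2 fold changes were 0.13 (SE 0.08) and 0.00 (SE 0.06).

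Kinases and transcription factors that act upstream of NR4A genes gave 0 calls among 36 tested of 37, with 2 at an unadjusted p below 0.05. Their median log2 fold change was 0.00, from −0.33 for *Crem* to 0.18 for *Elk1*. Of the 36, 5 had every knockout mouse below every control and 2 had every one above, beside 5.26% and 5.07% of all genes tested. *Creb1*, which encodes CREB, was at 77.9 ± 3.82 CPM in controls and 76.5 ± 3.53 CPM in knockout mice (SD, n = 3 each). *Ppp3ca*, the calcineurin catalytic subunit, was at 749 ± 7.09 and 751 ± 47.8 CPM, *Camk4*, a calcium-activated kinase that phosphorylates CREB, at 729 ± 18.6 and 690 ± 39.0 CPM, and *Prkar1a*, a regulatory subunit of the cAMP-dependent kinase, at 631 ± 19.8 and 624 ± 27.4 CPM. These are transcript levels, and the activity or phosphorylation of the proteins was not measured here.

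Immediate-early genes outside the family were lower in part. Of 41 such genes 38 were tested, 5 were lower and 0 higher in *Slc39a8*-NSKO mice, beside 0.0735% and 0.0245% of all genes. They were *Fos*, *Fosb*, *Fosl2*, *Sik1*, and *Per1*. The study itself names *Fos*, *Fosb*, *Fosl2*, and *Per1* from the same libraries, so that the count is not independent evidence of a direction. By qPCR on separate RNA samples, the study also reports lower levels of *Fosb*, *Per1*, *Nr4a2*, and *Nr4a3*. The median log2 fold change of the list was −0.34, 29 of the 38 were below 0, and 23 had an unadjusted p below 0.05. Every knockout mouse was below every control for 19 of the 38 and above for 2, beside 5.26% and 5.07% of all genes tested. Without knockout mouse 2 the number called was 3 (*Fos*, *Fosb*, and *Fosl2*), and with no filter on low counts it was 18.

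*Fos*, an AP-1 subunit, was measured at 81.1, 84.2, and 63.7 CPM in controls and at 14.9, 16.3, and 30.0 CPM in knockout mice (log2 fold change −1.91, SE 0.19, adjusted p = 0.000578 by edgeR). As with *Nr4a1*, control 3 was the lowest of the controls and knockout mouse 3 the highest of its group. *Fosl2*, another AP-1 subunit, was at 25.1, 29.8, and 37.6 CPM in controls and at 13.4, 9.55, and 12.9 CPM in knockout mice (log2 fold change −1.36, SE 0.15, adjusted p = 0.0010 by edgeR). Here the order of the mice was that of *Nr4a3*, with control 3 highest, control 1 lowest, knockout mouse 1 highest, and knockout mouse 2 lowest. *Per1*, a component of the circadian clock, was at 147, 181, and 203 CPM in controls and at 117, 107, and 128 CPM in knockout mice (log2 fold change −0.59, SE 0.10, adjusted p = 0.0435 by edgeR), and of the 6 fits that each left out 1 mouse it passed only in the one without control 1. Its controls ranked as those of *Nr4a3* did, but its highest knockout mouse was mouse 3. These orders were read after the values were seen and have no test.

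*Fosb* was the least abundant of the 5, at 3.36 ± 0.570 CPM in controls and 0.533 ± 0.20 CPM in knockout mice (log2 fold change −2.65, SE 0.32, adjusted p = 0.00228 by edgeR). *Sik1*, a kinase that restrains CREB coactivators, was at 14.9 ± 1.82 and 8.002 ± 0.477 CPM (−0.89, SE 0.12, adjusted p = 0.00723 by edgeR). Other members of the list did not pass, whether far from 0, as *Npas4* (−1.25, SE 0.26, adjusted p = 0.142 by edgeR), a factor induced by neuronal activity, or near it, as *Arc* (0.14, SE 0.11), a regulator of synapses, and *Jund* (0.00, SE 0.05), an AP-1 subunit. These last 3 were chosen for their values. Thus the list held genes with falls as large as those of the NR4A genes beside genes near the control level, with a range from 15.9% to 149% of control. Both ends of this range came from genes with few counts. *Fosb*, at the lower end, had 6 to 13 counts per knockout mouse, and the gene at the upper end had 14 to 33 per mouse.

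Genes known as NR4A targets in other cells gave 0 calls among 10 tested of 12, with 1 at an unadjusted p below 0.05 and a median log2 fold change of −0.09. *Aldh1a1*, an enzyme of retinoic acid synthesis, was at 231 ± 17.3 CPM in controls and 233 ± 9.47 CPM in *Slc39a8*-NSKO mice (SD, n = 3 each). *Spp1*, which encodes osteopontin, was at 27.5 ± 5.47 and 28.4 ± 3.08 CPM, and *Ret*, a receptor for neurotrophic factors, at 25.8 ± 3.02 and 28.03 ± 1.30 CPM. *Gch1*, an enzyme of the cofactor that tyrosine hydroxylase needs, was at 2.53 ± 0.410 and 1.55 ± 0.316 CPM, a log2 fold change of −0.71 (SE 0.26) with an adjusted p of 0.852 by edgeR. It was named after its values were seen. *Th*, tyrosine hydroxylase itself, was at 6.04 ± 0.940 and 5.65 ± 1.21 CPM, while *Slc6a3* and *Vip* had too few counts.

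Genes around the 3 loci were examined next. Distances were measured between the lowest coordinates of the gene models, which on the minus strand are the ends of the genes and not their starts. Within 500 kb of a member by this measure lay 74 annotated genes, of which 14 were tested, 8 near *Nr4a1*, 1 near *Nr4a2*, and 5 near *Nr4a3*. Of these 0 were lower and 0 higher in edgeR's test, with 0 at an unadjusted p below 0.05, and they lay between 88.1% and 118% of the control level. *Scn8a*, a sodium channel gene near *Nr4a1*, was at 301 ± 7.91 and 284 ± 25.5 CPM, *Acvr1b*, an activin receptor gene on the same side, at 115 ± 6.75 and 118 ± 2.39 CPM, and *Gpd2*, the gene tested near *Nr4a2*, at 76.7 ± 2.94 and 77.0 ± 10.4 CPM. By this measure the nearest tested genes to *Nr4a1* were *Atg101* and *Grasp*, at 30.0 and 30.1 kb on opposite sides. The RefSeq start of *Nr4a1* lies inside its gene model, so distances from that start differ from these. *Atg101* and *Grasp* had log2 fold changes of −0.19 (SE 0.10) and −0.15 (SE 0.15), against −1.49 for *Nr4a1* itself.

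**Figure D4:**
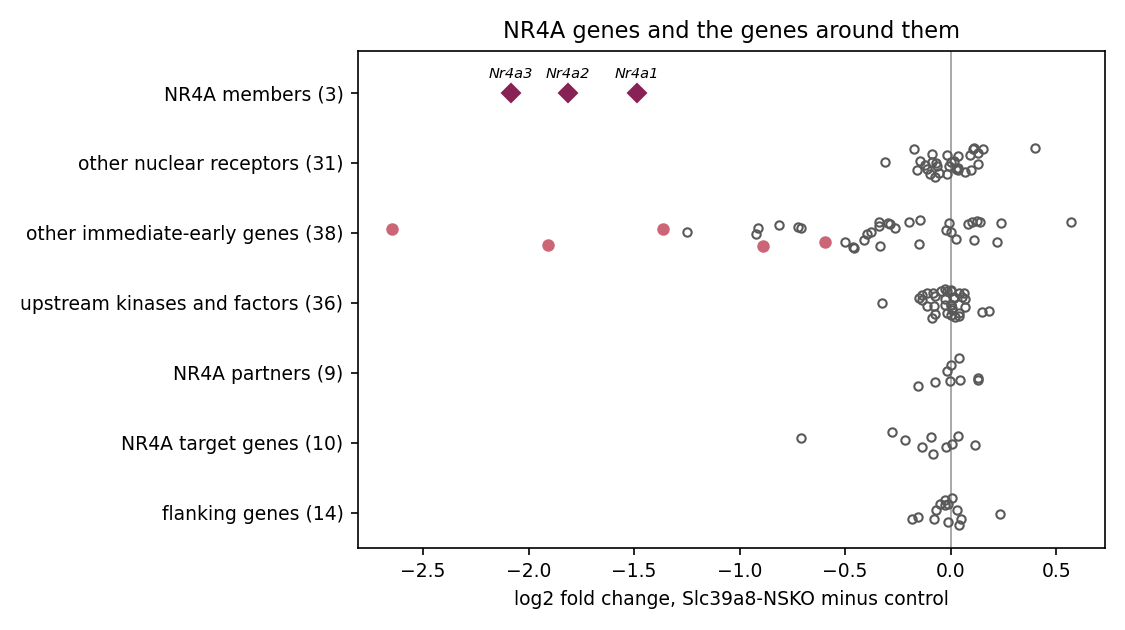
Log2 fold change (x axis, *Slc39a8*-NSKO against control) of the NR4A genes and of each tested gene in 6 related sets (y axis, number of genes in parentheses). Diamonds are the NR4A genes, filled circles are genes with an adjusted p below 0.05, and open circles are the others, placed at random heights within a row. The 5 filled circles are immediate-early genes, and the other sets have none and center near 0.

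In 3 marker lists the summed level was higher in every knockout mouse than in every control, while it overlapped in all the other lists named above. Of single genes tested, 5.07% had every knockout mouse above every control. The summed level of 5 Bergmann glia and astrocyte markers was 1800 to 2098 CPM in controls and 2130 to 2202 CPM in *Slc39a8*-NSKO mice, and that of 5 microglia markers was 66.0 to 74.5 and 77.4 to 81.2 CPM, with 0 of 5 called in each. That of 7 cardiac muscle markers was 2.63 to 3.96 and 12.1 to 14.8 CPM. Of the 5 tested, 3 were called higher (*Myh6*, *Actc1*, and *Tnnt2*), beside 0.0245% of all genes. *Tnni3* overlapped between genotypes, and *Myl2* was higher in every knockout mouse but was not called. *Myh7* and *Myl7* had too few counts to be tested, *Myh7* with 6 to 14 in controls and 3.17 to 10.1 in knockout mice. No marker in these lists was at 0 in every mouse, and their part in the lower NR4A levels was not tested.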

How the data were processed

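RNA-Seq libraries of male cerebellum, 3 from controls and 3 from *Slc39a8*-NSKO mice, were analysed. The authors deposited expected counts per gene, which are not normalized for depth or gene length. The study's methods state oligo-dT priming and alignment with STAR, and the submitters' processing notes name STAR, RSEM, DESeq2, and mm10 (versions not given in the sources used here). The labels name a directional kit, but the strand setting of the counting is not given in the sources used here. No annotated gene overlapped a member.

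Expected counts were rounded, and the 92 spike-in entries were left out. The quasi-likelihood test of edgeR 4.0.16 in R 4.3.3 was run on 16330 genes kept by filterByExpr after TMM normalization, with no covariate and Benjamini-Hochberg adjustment over all genes tested and a threshold of 0.05. Each SE is the size of the log2 fold change divided by the square root of edgeR's test statistic F, and for the members no test is read from it. Counts per mouse (14431260 to 20844267) set the counting error. Alternatives were RLE or library-size scaling, no filter, at least 10 counts in every mouse, DESeq2 1.42.0, the replicate number as a block, leaving out each mouse, the longest-transcript length, and a window of 1000 kb for flanking genes. Merged exon lengths came from GENCODE M21 (GRCm38), which held 53620 of the 53715 genes. Motifs were matched on both strands of RefSeq promoter windows (GRCm38.p6).

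The members and the gene lists were chosen with earlier results of these data known. Named genes were the 3 members, every called gene of a list, or the 3 most abundant of a list with fewer than 3 calls, *Slc39a8*, the RXR genes, and the 5 genes above a mean of 1 CPM most like the members in log2(CPM + 1). *Npas4*, *Arc*, *Jund*, *Gch1*, *Th*, *Slc6a3*, *Vip*, *Creb1*, *Crem*, *Elk1*, *Nr0b2*, *Nr6a1*, *Atg101*, and *Grasp* were named outside that rule, after their values were seen, as were called genes of the cardiac muscle markers. A gene that the rule names is not reported here.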

Additional observations from a re-analysis of the deposited data

How the results depend on the processing

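The log2 fold changes of *Nr4a1*, *Nr4a2*, and *Nr4a3* were negative under every alternative run. With the longest transcript as length, control levels were 25.9 CPM per kilobase for *Nr4a1* and 12.9 for *Nr4a2*. Leaving out 1 mouse gave control levels of 18.4 to 19.4, 11.1 to 11.5, and 9.51 to 11.6 CPM per kilobase for *Nr4a1*, *Nr4a2*, and *Nr4a3*. The 5 immediate-early genes called became 18 with no filter on low counts and 3 to 7 when 1 mouse was left out (3 without knockout mouse 2). The other nuclear receptors, partners, upstream factors, targets, and flanking genes gave 0 calls under every alternative run, DESeq2 and the wider window included. Over all genes, 16 of 16330 were called, against 178 of 27187 with no filter, 37 of 27181 by DESeq2, 38 without control 1, and 9 without knockout mouse 2; the causes were not tested.

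With the replicate number as a block, the log2 fold changes were −1.50, −1.82, and −2.09 for *Nr4a1*, *Nr4a2*, and *Nr4a3*, with 7 immediate-early genes and 41 of all genes called. Deviations of same-numbered mice correlated at 0.14, 0.12, and 0.01, and those of mice with different numbers at −0.18 to 0.07. Control 3 correlated best with knockout mouse 1 (0.04). With 3 mice per group these values cannot settle whether the numbers are pairs, and they were not taken as pairs.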

Other observations

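Among 14830 genes with a mean of at least 1 CPM, those whose log2(CPM + 1) over the 6 mice was most like that of the NR4A genes, by mean Pearson r with the 3 members, were *Napb* (0.979), a gene of vesicle fusion, *Zfp874b* (0.974), *Adgra2* (0.972), *Spindoc* (0.969), and *Cdk20* (0.968). The 6 points fall into the 2 genotypes and share libraries, and the members were selected on that split, so that this order is a description and nothing beyond the split by genotype is read from it. *Napb* was at 249, 252, and 252 CPM in controls and at 226, 220, and 225 CPM in *Slc39a8*-NSKO mice. The log2 fold changes were −0.17 (SE 0.05) for *Napb*, −0.37 (SE 0.08) for *Zfp874b*, −0.30 (SE 0.08) for *Adgra2*, −0.21 (SE 0.08) for *Spindoc*, and −0.14 (SE 0.08) for *Cdk20*.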
